A study of Rattus norvegicus with 13 samples.

Results

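Genes of voltage-gated sodium and calcium channels were followed in the whole hypothalamus of 13 rats, 7 given standard chow and 6 given a high-fructose diet. The members were the rows whose gene symbol begins Cacna, Cacnb or Cacng, or is Scn, a number and a or b. The table held 39 such symbols, 1 row each, among 17366 rows. Of these, 32 had a mean of at least 0.5 FPKM over all rats and were tested, among 11837 rows that passed the same minimum. FPKM counts sequenced fragments after dividing by transcript length and by library size, so levels of different genes can be set side by side. The 32 genes comprise 15 pore subunits (7 sodium, 8 calcium) and 17 accessory subunits (4 sodium, 13 calcium).

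The chow contained 0.30% fructose and the other diet 55%, and they are different products, so the diets may differ in more than fructose. Rats were paired in cages and put on their diet on postnatal day 25, fasted from day 79, and decapitated on day 80, 1 h after an intraperitoneal injection. In the whole cohort 31 rats were injected with glucose at 2 g per kg and 29 with saline. Which injection each sequenced rat had, and its cage, sex and strain, are not stated in the labels. The rats are separate animals, but cage mates may not be independent.

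A voltage-gated sodium channel consists of 1 large pore-forming alpha subunit, encoded by an Scn gene ending in a, joined by small beta subunits that modify gating and act in cell adhesion. It carries the upstroke of the action potential. A voltage-gated calcium channel has an alpha1 pore (Cacna1 genes). Pores of the high-voltage-activated classes (L, P/Q, N and R type) assemble with an intracellular beta subunit (Cacnb) and an extracellular alpha2delta subunit (Cacna2d), which help the pore reach the membrane. The low-voltage-activated T type pores, Cacna1g, Cacna1h and Cacna1i, open near the resting potential, sustain rebound bursts in neurons such as those of the thalamus, and can work without these partners. Most brain gamma subunits (Cacng) are better known as auxiliary subunits of AMPA glutamate receptors.

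Among the 32 channel genes the diets differed in 5, with 4 lower and 1 higher on fructose, while 27 missed the threshold (limma's moderated test, Benjamini-Hochberg adjusted over all genes tested, threshold 0.05). That is 15.6% of the channel genes, beside 3.94% of all genes tested (1.66% higher and 2.27% lower on fructose). The genes that fell were the T type pore gene Cacna1g and 3 calcium channel accessory genes, Cacnb2, Cacna2d3 and Cacng5. The gene that rose was Cacna1h, another T type pore gene. The median log2 difference, fructose minus chow, was -0.13 over the channel genes and 0.00085 over all genes tested, and 65.6% of the channel genes lay below 0, beside 49.7% of all genes. At an unadjusted p under 0.05 limma found 11 channel genes lower and 4 higher, where 10.6% and 8.59% of all genes tested did so. Exact two-sided permutation, with 1716 ways to divide the rats, put 12 channel genes at an unadjusted p under 0.05, beside 18.8% of all genes (8.29% higher and 10.5% lower). After adjustment it called 0 channel genes and 0 of all genes. Even genes at the smallest p of this test, 0.000583, had an adjusted p of 0.0663. In these data it could thus call no gene after adjustment, whatever the size of its difference.

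**Figure D1:**
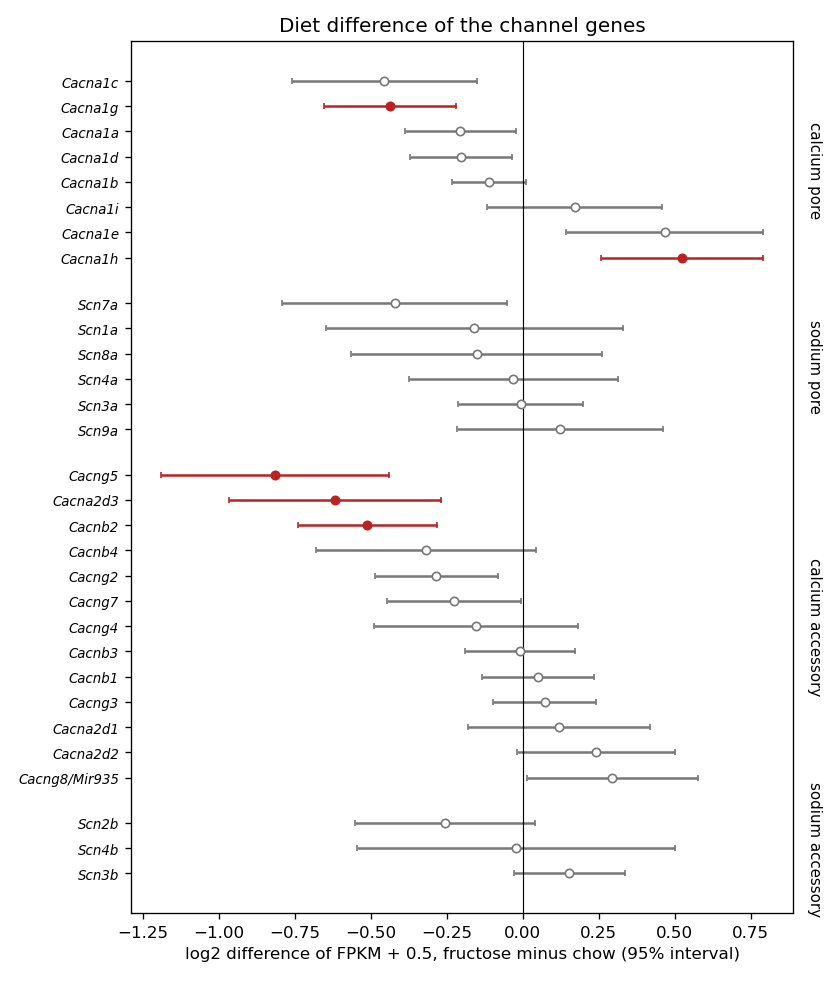
Each point is the log2 difference in FPKM + 0.5 between fructose and chow rats (x axis) of 1 of 30 channel genes, with its 95% interval from limma, and filled red points passed the adjusted threshold of 0.05. Cacna1g and Cacna1h stand on opposite sides of 0, and the 3 accessory genes that passed are all below it.

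These calls depended on which rats were included. With 1 rat left out at a time, limma called 0 channel genes when chow replicate 2 or fructose replicate 2, 4 or 6 was missing. In these fits 10, 11, 10 and 11 stood at an unadjusted p under 0.05. Of all genes tested they called 0.752%, 1.24%, 0.701% and 0.956%. Limma called 1 channel gene without chow replicate 4 (Cacng5), chow replicate 5 (Cacnb2) or chow replicate 7 (Cacnb2), beside 0.87%, 1.58% and 1.29% of all genes. Without chow replicate 1 it called 8, among them Cacna1c and the row of Cacng8, beside 7.26% of all genes. The channel counts thus moved with the counts over all genes. No filter on low values, which raised the number of rows tested to 17366, left 0 calls, with 13 at an unadjusted p under 0.05. That setting called 0.749% of all genes. The log2 differences of the 5 genes kept their sign in all 13 fits with 1 rat left out. In these fits the median over the channel genes ran from -0.18 (without fructose replicate 1) to -0.065 (without chow replicate 2). Without chow replicate 2 and fructose replicate 2 together, a choice made after the data were seen, that median was 0.012.

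Cacna1g encodes Cav3.1, the T type pore known for burst firing of thalamic relay neurons. It was the most abundant calcium pore gene, with a mean of 42.1 ± 7.12 FPKM in chow rats (SD, n = 7) and 30.8 ± 3.51 FPKM in fructose rats (SD, n = 6). On chow it ranged from 35.2 to 56.7 with a median of 41.0 FPKM, and on fructose from 24.4 to 34.2 with a median of 31.1 FPKM. All 6 fructose rats were below all 7 chow rats, a separation seen in that direction in 0.727% of all genes tested and in either direction in 1.61%. No other channel gene was separated in this way. Cacna1g fell by 0.44 on the log2 scale (-0.44 ± 0.10, SE; limma adjusted p = 0.0338; exact permutation p = 0.00175, adjusted over all genes 0.0821). The gap was narrow, since chow replicate 1 stood at 35.2 and fructose replicate 3 at 34.2 FPKM. The highest chow rat, replicate 2, stood apart at 56.7 FPKM, and without it the difference was -0.36 (limma adjusted p = 0.0541). The call was also lost without chow replicate 4 (0.0691), chow replicate 5 (0.0574), chow replicate 7 (0.0677) or fructose replicates 2 (0.0677), 4 (0.0717) or 6 (0.0767). Without chow replicate 2 and fructose replicate 2 together, a choice made after the data were seen, it was -0.30 (limma adjusted p = 0.0656). In whole tissue, fewer cells of a type and less RNA per cell cannot be told apart. The summed FPKM of 22 thalamus markers was also highest in chow replicate 2 and lowest in fructose replicate 2.

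Cacna1h, which encodes the T type pore Cav3.2, went the other way. Its level was 9.49 ± 1.91 FPKM on chow and 13.8 ± 2.302 FPKM on fructose. Chow rats ranged from 7.61 to 13.4 with a median of 9.07 FPKM, and fructose rats from 10.7 to 16.2 with a median of 13.9 FPKM. The diets overlapped because of chow replicate 1 alone, since the next highest chow rat stood at 10.4 FPKM, below all 6 fructose rats, and all 6 fructose rats were above the chow mean. Cacna1h rose by 0.52 ± 0.13 (SE, limma adjusted p = 0.0366). Its call was lost, with an adjusted p of at most 0.0922, when chow replicate 2, 4, 5 or 7, or fructose replicate 2, 3, 4 or 6, was left out. Over the 13 fits its difference lay between 0.48 and 0.61.

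Cacna1i, the Cav3.3 gene of the same class, stood at 10.3 ± 1.91 FPKM on chow and 11.7 ± 2.54 FPKM on fructose. It ranged from 8.10 to 13.5 (median 9.25) on chow and from 8.94 to 16.1 (median 11.8) on fructose, so the diets overlapped widely. The difference of 0.17 ± 0.13 did not pass (limma adjusted p = 0.544), with a 95% interval from -0.12 to 0.46.

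**Figure D2:**
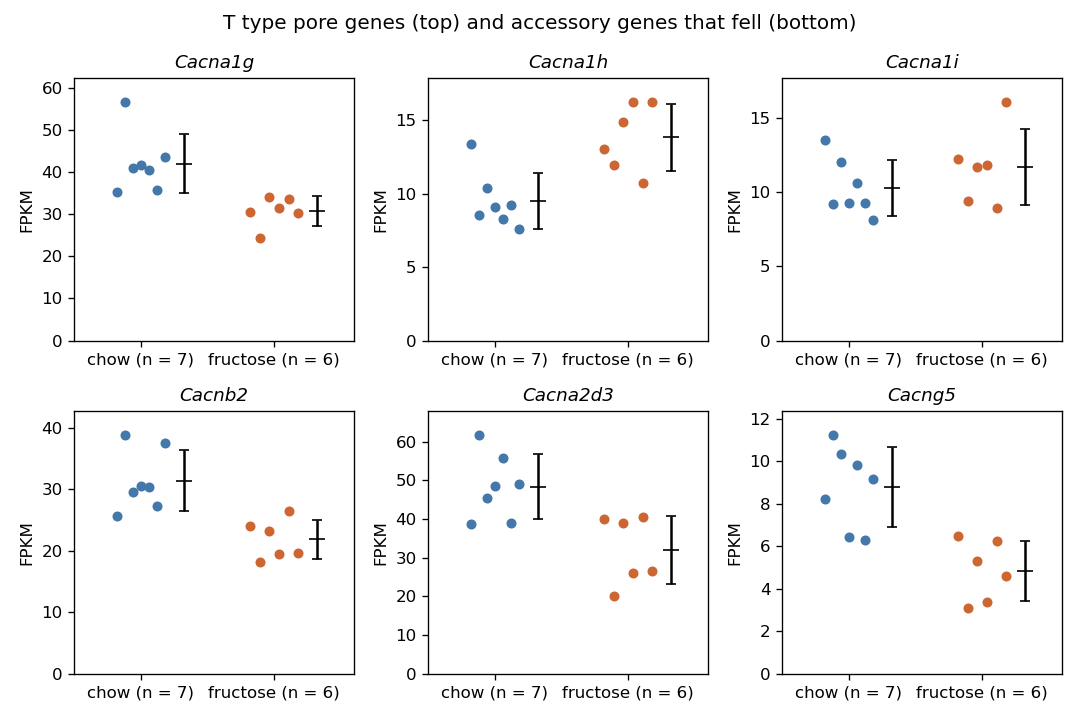
FPKM of the T type pore genes Cacna1g, Cacna1h and Cacna1i (top) and of the accessory genes Cacnb2, Cacna2d3 and Cacng5 (bottom), 1 point per rat, chow in blue and fructose in orange, with the mean and SD as a black bar beside each diet. In Cacna1g every fructose rat (24.4 to 34.2) is below every chow rat (35.2 to 56.7), and in the other panels the diets overlap.

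Because Cacna1g and Cacna1h are both counted per length, their ratio describes the make-up of the T type transcripts in each rat. On chow Cacna1g was 4.62 ± 1.30 times as abundant as Cacna1h (2.64 to 6.62) and on fructose 2.28 ± 0.469 times (1.87 to 3.15). The overlap came from 2 rats, chow replicate 1 at 2.64 and fructose replicate 5 at 3.15. The within-rat log2 difference between both genes was 0.96 lower on fructose (-0.96, exact two-sided permutation p = 0.00175, adjusted over 31 pairs 0.0181). This call held in each fit without 1 rat (adjusted p from 0.00839 to 0.0489), though not without chow replicate 2 and fructose replicate 2 together (-0.84, exact permutation, adjusted p = 0.0671). Both genes had already been called, in opposite directions, in the same rats, so this pair gives no separate support. Its adjustment covers only the pairs with Cacna1g, not all genes. Cacna1g made up 67.8 ± 6.33% of the summed T type FPKM on chow and 54.8 ± 4.87% on fructose. The sum itself was 61.9 ± 6.23 FPKM on chow and 56.3 ± 6.18 FPKM on fructose, with overlapping rats.

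**Figure D3:**
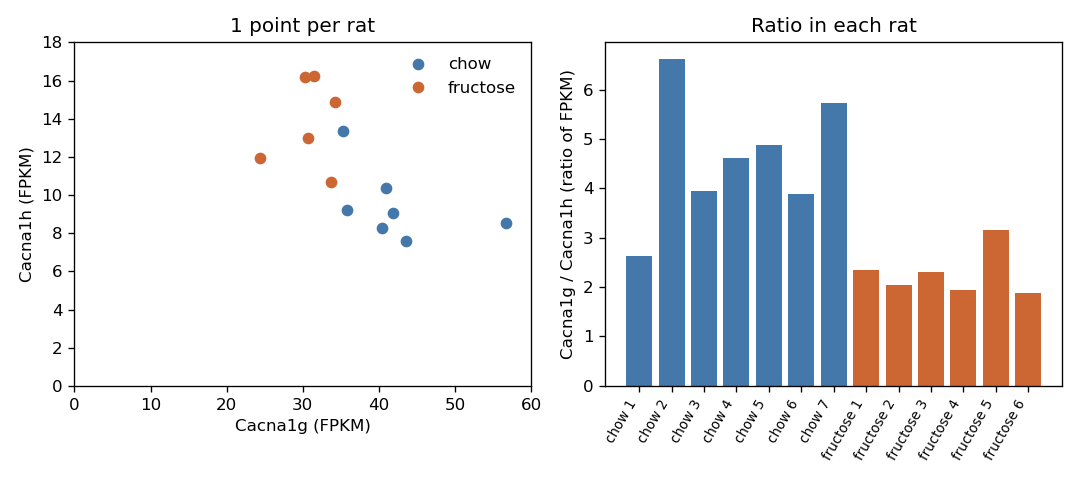
Left, Cacna1h (y axis, FPKM) against Cacna1g (x axis, FPKM), 1 point per rat, chow in blue and fructose in orange. Right, the ratio of the 2 genes in each rat: 5 of 6 fructose rats lie below every chow rat, and fructose replicate 5, at 3.15, lies above chow replicate 1, at 2.64.

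Cacna1g was then set against each of the 31 other channel genes by the same within-rat difference, so that all pairs share Cacna1g. In 16 of 31 pairs it was lower on fructose relative to the other gene (exact permutation, adjusted p under 0.05 over the pairs) and in 15 no difference passed, with 18 pairs at an unadjusted p under 0.05. The pairs that passed included 6 of the other calcium pore genes, namely Cacna1a, Cacna1b, Cacna1d, Cacna1e, Cacna1h and Cacna1i. Relative to Cacna1e the difference was -0.90, with no overlap between the diets. Relative to Cacna1c, the pore of an L type channel, it was 0.02 (exact permutation p = 0.791), beside log2 differences of -0.44 for Cacna1g and -0.46 for Cacna1c. The difference was also above 0 relative to Cacnb2 (0.07), Cacna2d3 (0.18) and Cacng5 (0.38), none of which passed. Without fructose replicate 2, or without fructose replicate 6, 4 pairs passed, and these were Cacna1a, Cacna1e, Cacna1h and Cacng3 in each case. Without chow replicate 2 and fructose replicate 2 together 0 passed, with 14 at an unadjusted p under 0.05. Cacna1g was chosen for this comparison with its fall already known.

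**Figure D4:**
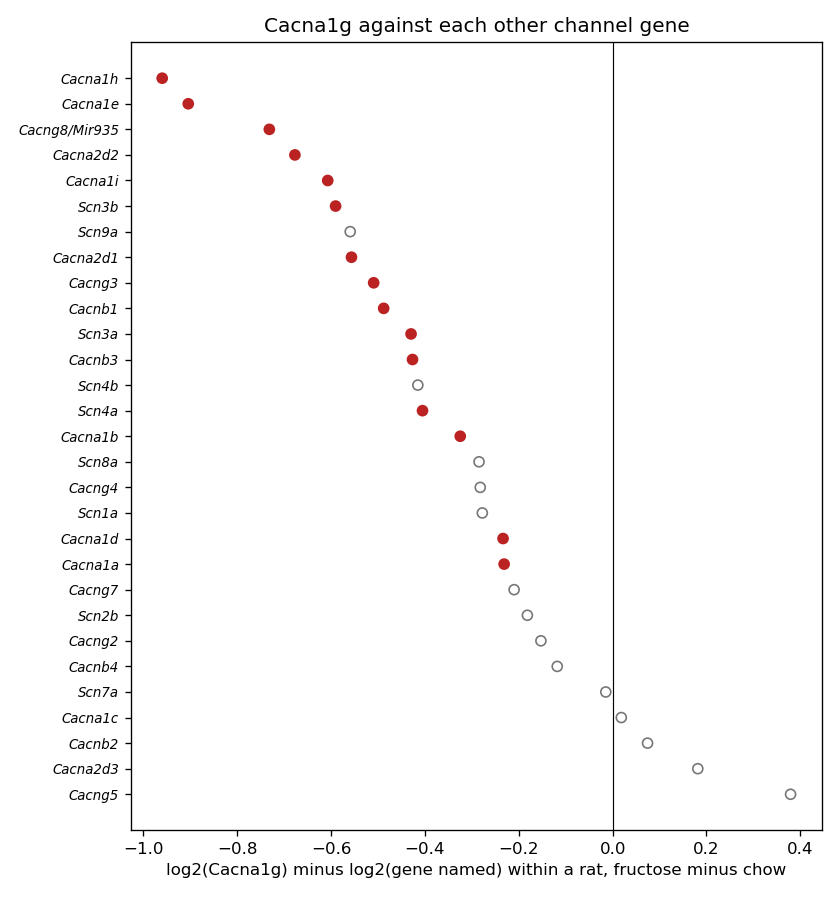
The x axis gives, for 29 channel genes, how far the within-rat log2 difference between Cacna1g and that gene moved from chow to fructose, and filled red points passed an exact permutation test adjusted over the 31 pairs. Values run from -0.96 for Cacna1h to 0.38 for Cacng5.

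The high-voltage-activated pore genes mostly leaned down without passing. Cacna1b, the N type pore of presynaptic terminals, ranged from 23.3 to 26.9 (median 24.7) on chow and from 20.2 to 24.8 FPKM (median 23.4) on fructose. Cacna1a, the P/Q type pore, ranged from 20.9 to 29.3 (median 24.5) and from 16.9 to 23.5 FPKM (median 22.1). The diets overlapped in both genes, and fructose replicate 2 was the lowest rat in each. Their differences were -0.11 ± 0.06 and -0.21 ± 0.09 (limma adjusted p = 0.307 and 0.201). The L type pore genes Cacna1c and Cacna1d, which couple calcium entry to transcription and pacemaking, stood at -0.46 ± 0.14 and -0.20 ± 0.08 (adjusted p = 0.0869 and 0.169), and in both all 6 fructose rats were below the chow mean. Without chow replicate 1, a fit that called 7.26% of all genes, Cacna1c passed (-0.51, limma adjusted p = 0.0465). Cacna1e, the R type pore, was the exception among these, at 3.42 ± 0.792 FPKM on chow and 4.88 ± 0.994 FPKM on fructose (0.47 ± 0.15, limma adjusted p = 0.0999), and each of the 6 fructose rats exceeded the chow mean.

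None of the 7 sodium pore genes passed limma's test, where 2 stood at an unadjusted p under 0.05, beside 19.2% of all genes tested. By the exact permutation test, which could call no gene after adjustment, 1 stood at that level, beside 18.8% of all genes. Scn8a (Nav1.6), the pore of the axon initial segment and nodes of Ranvier, ranged from 13.01 to 31.5 (median 22.9) on chow and from 14.2 to 28.9 FPKM (median 18.1) on fructose. Scn3a (Nav1.3), best known from developing brain, ranged from 8.40 to 12.7 (median 10.3) and from 8.31 to 11.4 FPKM (median 10.5). Scn1a (Nav1.1), prominent in fast-spiking inhibitory neurons, ranged from 6.52 to 14.7 (median 9.28) and from 5.66 to 17.0 FPKM (median 8.31). In all 3 genes the diets lay over each other, and the highest Scn1a value of all was in fructose replicate 1. The 95% intervals of the log2 difference were -0.57 to 0.26 for Scn8a, -0.21 to 0.20 for Scn3a and -0.65 to 0.33 for Scn1a, so Scn3a was the most tightly bounded of these. Nav1.2 is listed in the table as Scn2a1, a symbol outside the rule. It stood at 39.7 ± 4.42 FPKM on chow and 35.6 ± 3.73 FPKM on fructose, above every sodium pore gene counted here, and its difference of -0.16 ± 0.08 did not pass (limma adjusted p = 0.315).

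Scn7a, which encodes the atypical sodium-sensing channel Nax, known from glia of the circumventricular organs, was 5.43 ± 1.85 FPKM on chow and 3.79 ± 0.613 FPKM on fructose (-0.42 ± 0.17, limma adjusted p = 0.198). Scn9a (Nav1.7) differed by 0.12 ± 0.16 and Scn4a (Nav1.4), the skeletal muscle pore, by -0.03 ± 0.16. Scn4a had the lowest level of any gene tested here, 0.854 ± 0.290 FPKM on chow and 0.810 ± 0.211 FPKM on fructose.

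Among the accessory genes of calcium channels, 3 of 13 fell and 10 did not pass, while 2.27% of all genes tested fell. Cacnb2, a beta subunit that carries pores to the membrane, was 31.4 ± 4.98 FPKM on chow and 21.8 ± 3.22 FPKM on fructose. It ranged from 25.6 to 38.8 (median 30.3) on chow and from 18.2 to 26.5 FPKM (median 21.3) on fructose. Only fructose replicate 5 reached into the chow range. Cacnb2 fell by 0.51 (-0.51 ± 0.11, SE; limma adjusted p = 0.0262), and its call was lost, with an adjusted p of at most 0.0677, when chow replicate 2 or 4, or fructose replicate 2, 4 or 6, was left out.

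Cacna2d3, an alpha2delta subunit, was 48.3 ± 8.39 FPKM on chow and 31.98 ± 8.88 FPKM on fructose. Chow rats ranged from 38.7 to 61.7 (median 48.5) and fructose rats from 19.99 to 40.4 FPKM (median 32.7). Fructose replicates 2, 4 and 6, at 19.99, 26.0 and 26.5 FPKM, lay well below every chow rat, while fructose replicates 1, 3 and 5, at 40.0, 38.9 and 40.4 FPKM, lay within the lower chow range. The summed FPKM of the thalamus markers, given below, divided the fructose rats in the same way. Cacna2d3 fell by 0.62 (-0.62 ± 0.16, limma adjusted p = 0.0478). Its adjusted p was the highest of the 5 calls. The call was lost without any of chow replicates 2, 3, 4, 5 and 7 or fructose replicates 2, 4 and 6 (adjusted p at most 0.112), with quantile normalization (0.0547) and with robust empirical Bayes (0.0524).

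Cacng5, a gamma subunit that also modulates AMPA receptors, had the largest difference of the 32 genes. It was 8.78 ± 1.90 FPKM on chow and 4.84 ± 1.42 FPKM on fructose. Chow rats ranged from 6.30 to 11.2 (median 9.15) and fructose rats from 3.10 to 6.46 FPKM (median 4.93), and the diets overlapped at their edges. Cacng5 fell by 0.82 (-0.82 ± 0.18, limma adjusted p = 0.0276), and the call was lost, with an adjusted p of at most 0.0696, when chow replicate 2, 5 or 7, or fructose replicate 2, 4 or 6, was left out.

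For these 3 accessory genes, the ones that limma called, the 250 bases before their annotated starts are shown (RefSeq, rat build GRCr8, gene strand, 5′ to 3′). Capitals mark GGGCGG, the GC box, and TGACG, the core of a cAMP response element, on either strand. Cacnb2 has 2 annotated starts, and the deposited FPKM does not separate them. The windows are Cacna2d3 at chr16:4918900-4919149 (minus strand), Cacnb2 at chr17:82472965-82473214 and chr17:82596542-82596791 (plus strand), and Cacng5 at chr10:93336668-93336917 (minus strand).
Cacna2d3: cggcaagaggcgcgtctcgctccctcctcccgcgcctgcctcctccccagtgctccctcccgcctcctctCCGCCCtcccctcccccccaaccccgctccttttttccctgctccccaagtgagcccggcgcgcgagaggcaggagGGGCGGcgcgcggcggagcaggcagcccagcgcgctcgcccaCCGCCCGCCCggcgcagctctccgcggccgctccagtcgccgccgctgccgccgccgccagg
Cacnb2, first start: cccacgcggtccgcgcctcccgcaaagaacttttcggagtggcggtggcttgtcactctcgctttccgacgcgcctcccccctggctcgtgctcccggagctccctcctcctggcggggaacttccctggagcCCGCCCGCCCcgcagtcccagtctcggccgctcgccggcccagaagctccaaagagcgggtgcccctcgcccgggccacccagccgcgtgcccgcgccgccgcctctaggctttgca
Cacnb2, second start: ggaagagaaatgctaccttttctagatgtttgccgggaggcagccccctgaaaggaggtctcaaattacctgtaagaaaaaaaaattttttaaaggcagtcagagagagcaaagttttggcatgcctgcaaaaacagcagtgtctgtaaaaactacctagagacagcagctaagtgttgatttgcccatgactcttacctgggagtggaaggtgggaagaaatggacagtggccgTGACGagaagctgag
Cacng5: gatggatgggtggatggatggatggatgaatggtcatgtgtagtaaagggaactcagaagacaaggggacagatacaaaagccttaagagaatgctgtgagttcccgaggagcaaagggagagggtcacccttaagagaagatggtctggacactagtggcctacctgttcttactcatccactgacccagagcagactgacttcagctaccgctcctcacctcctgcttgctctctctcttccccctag

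The Cacna2d3 window and the first Cacnb2 window were rich in G and C, at 78.8% and 73.2%, with 34 and 30 CpG dinucleotides and 4 and 2 GC boxes. The second Cacnb2 window (45.6% G and C, 3 CpG) held 1 TGACG and no GC box, and the Cacng5 window (51.2%, 2 CpG) held neither. The median over all 33469 windows of the table was 51.2%. Of the 32 genes, 21 had a window in the table, with 24 windows in all. Counted by window, GGGCGG stood in 13 of 24 (54.2%), against 30.5% of all windows. TGACG stood in 4 (16.7%, against 18.2%), the EGR motif GCGNGGGCG in 7 (29.2%, against 4.29%) and TATAAA in 1, of Cacng2 (4.17%, against 12.9%). GCGNGGGCG can share letters with GGGCGG, and both are made of G and C apart from the free base N. The windows compared were not matched for G and C content, so these shares do not separate the motifs from base composition. The windows of the 3 accessory genes that fell ranged from CpG-rich to CpG-poor, also between the 2 starts of Cacnb2. Whether these windows bear on the fall was not tested. Genes without a window included Cacna1g, Cacna1h, Cacna1i, Cacnb1, Cacnb4, Cacng4, Cacng7, Scn1a and Scn3b.

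The other beta subunit genes gave Cacnb4 at -0.32 ± 0.17, Cacnb3 at -0.01 ± 0.08 and Cacnb1 at 0.05 ± 0.09, none of which passed. Cacnb3, the most abundant beta subunit gene, ranged from 49.7 to 59.8 (median 55.8) on chow and from 44.3 to 65.2 FPKM (median 54.1) on fructose, so the fructose rats enclosed the chow rats. Its 95% interval was -0.19 to 0.17. The alpha2delta genes Cacna2d1 and Cacna2d2, whose products bind gabapentin, stood at 0.12 ± 0.14 and 0.24 ± 0.12 (limma adjusted p = 0.715 and 0.303), on the other side of 0 from Cacna2d3. Summed over the family, FPKM was 88.7 ± 9.95 on chow and 78.2 ± 10.8 on fructose for alpha2delta, and 133 ± 8.53 and 122 ± 11.2 for beta.

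Among the gamma genes, Cacng7 was the most abundant calcium accessory gene, from 107 to 141 (median 118) on chow and from 83.4 to 135 FPKM (median 97.5) on fructose. Fructose replicate 1 stood at 135 FPKM, and the other 5 fructose rats were below the chow mean (-0.23 ± 0.10, limma adjusted p = 0.247). Cacng2, stargazin, which carries AMPA receptors to the synapse, stood at -0.28 ± 0.09 (adjusted p = 0.109) and passed without fructose replicate 1 (-0.36, limma adjusted p = 0.0405). Cacng4 stood at -0.15 ± 0.16 and Cacng3 at 0.07 ± 0.08. The row of Cacng8, joined with the microRNA gene Mir935, stood at 0.29 ± 0.13 (adjusted p = 0.235). It passed without chow replicate 1 (0.39, limma adjusted p = 0.0293), in a fit that called 7.26% of all genes.

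Some channel genes lie side by side in the genome, by their order in RefSeq's build GRCr8. Cacng5 adjoins Cacng4, with no protein-coding gene between, and the latter adjoins Cacng1. In this row of genes Cacng5 fell, Cacng4 did not pass (95% interval -0.49 to 0.18) and Cacng1 was listed at 0 in all rats but fructose replicate 6. Cacng8 and Cacng7 are also direct neighbours and had differences of opposite sign, 0.29 and -0.23, neither of which passed. Scn2b and Scn4b, neighbours too, stood at -0.25 ± 0.14 and -0.02 ± 0.25.

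None of the 4 sodium beta subunit genes passed, with 1 at an unadjusted p under 0.05 by limma and 1 by the exact permutation test. Over all genes tested the shares at that level were 19.2% and 18.8%. Scn2b ranged from 64.0 to 120 (median 92.3) on chow and from 64.2 to 94.4 FPKM (median 80.1) on fructose. Scn3b ranged from 49.1 to 74.2 (median 62.7) and from 62.9 to 76.0 FPKM (median 70.3). The diets overlapped in both, with differences of -0.25 ± 0.14 and 0.15 ± 0.09 (adjusted p = 0.341 and 0.350). Scn4b, known for resurgent sodium current in fast-firing neurons, had wide spreads, 30.6 ± 10.8 FPKM on chow and 29.5 ± 9.12 FPKM on fructose, and its 95% interval ran from -0.54 to 0.50.

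The 7 symbols below the minimum were not tested, and these were Cacna1f, Cacna1s, Cacna2d4, Cacng1, Cacng6, Scn10a and Scn11a. Cacna1s and Cacng1 belong to the skeletal muscle calcium channel, Cacna1f and Cacna2d4 to the retina, and Scn10a and Scn11a to peripheral sensory neurons. Their means were at most 0.156 FPKM on chow (Cacng6) and 0.126 FPKM on fructose (Cacna2d4). The lowest gene inside the minimum was Scn4a, with 0.834 FPKM over all rats, and the highest outside it was Cacna2d4, with 0.139 FPKM. The minimum applied to the mean over both diets, and each of the 32 genes stood above it in both.

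Across rats, the channel genes did not vary independently. Chow replicate 2 had the highest chow value in 13 of 32 genes and the lowest in 0, and fructose replicate 2 the lowest fructose value in 16 and the highest in 0. Chow replicate 1 was highest in 10, among them Cacna1h, Cacna1i, Cacna2d2, Cacnb1 and Scn9a, and lowest in 6, among them Cacna1g, Cacnb2, Cacna2d3 and Scn7a. Over the 13 rats, after subtracting each diet's mean of log2(FPKM + 0.5), Cacna1g varied most closely with Cacna1c (Pearson r = 0.915), Cacna1d (0.845), Cacna1a (0.845), Cacnb4 (0.828) and Cacnb2 (0.823). Values for Cacna1h (-0.260) and Cacna1i (-0.189) were below 0, the lowest being Scn3b (-0.526). These r are a description of 13 libraries, and each pair of values comes from 1 library, so its depth and tissue content are shared. Among all genes tested, the 10 most like Cacna1g by this measure were led by Clstn1 (0.966), calsyntenin 1, Dlgap4 (0.960), a postsynaptic scaffold protein, and Pcsk2 (0.958), a prohormone convertase, and also included Lrrn2, Cnnm1, Sgtb, Atg9a, a joined row of gamma protocadherins and Lasp1 (0.927).

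**Figure D5:**
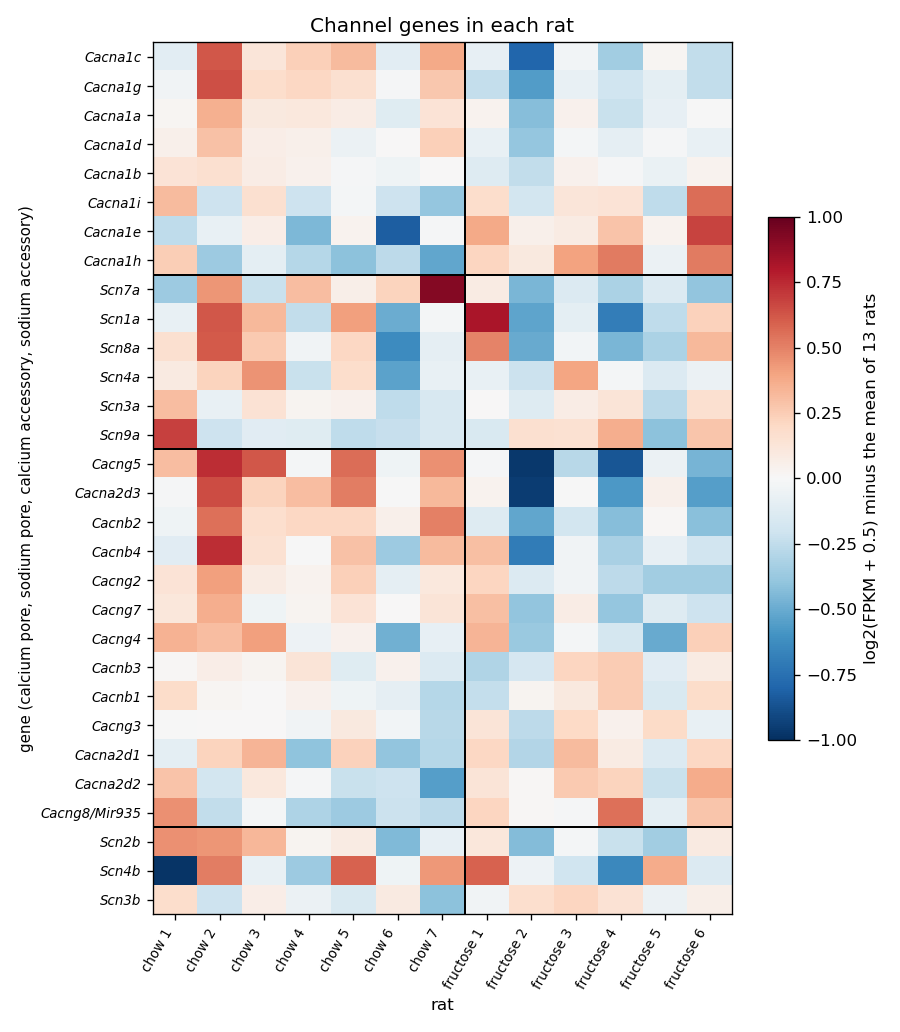
Each cell is the log2(FPKM + 0.5) of 1 of 30 channel genes (rows, in 4 blocks by class) in 1 rat (columns), minus that gene's mean over the 13 rats, on a scale from blue (lower) to red (higher). The column of chow replicate 2 is mostly red and that of fructose replicate 2 mostly blue, and chow replicate 1 is blue in Scn4b and red in Scn9a.

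Markers of neighbouring tissue and of other cell types also differed between the diets. Of 22 thalamus markers, a list that includes Prkcd, Lef1, Ramp3 and Zic1, all were tested, 15 fell, 1 rose (Calb2) and 6 did not pass, and 0 were listed at 0 throughout. Their summed FPKM ranged from 812 to 1886 on chow and from 640 to 1224 on fructose. It was highest in chow replicate 2, which was also highest for Cacna1g, and lowest in fructose replicate 2, which was lowest for Cacna1g, Cacna1c, Cacna2d3, Cacnb2 and Cacng5. Chow replicate 1, with the lowest Cacna1g on chow, had the lowest sum on chow. That sum, 812 FPKM, was below those of fructose replicates 1, 3 and 5 (984, 1050 and 1224 FPKM), which had lower Cacna1g. It was above those of fructose replicates 2, 4 and 6 (640, 770 and 686 FPKM), the rats lowest in Cacna2d3. Of 16 tested markers of midbrain dopamine neurons 15 rose, and their sum ranged from 90.1 to 135 FPKM on chow and from 236 to 654 FPKM on fructose. Among blood cell markers 4 of 6 rose, and among those of meninges and fibroblasts 5 of 8, with Col1a2 and Ogn listed at 0. Of 8 astrocyte markers 2 rose, Aqp4 and Gfap, and 6 did not pass. The astrocyte sum ranged from 3516 to 3851 FPKM on chow and from 3911 to 4191 FPKM on fructose, with no overlap. Most of it came from S100b (means of 1571 and 1767 FPKM) and Aldoc (1391 and 1446 FPKM). Neither of them passed (limma adjusted p = 0.121 and 0.554). Over all genes tested, limma called 3.94% (1.66% higher and 2.27% lower on fructose). The part of the tissue and cell markers in the channel results was not tested.

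Markers of the hypothalamus itself were present, with 19 of 20 tested and a summed FPKM of 4272 to 9946 on chow and 1702 to 7428 on fructose. Fructose replicates 1, 3 and 5, at 2477, 3083 and 1702 FPKM, were below every chow rat in this sum. Within the chow range stood fructose replicates 2, 4 and 6, at 6657, 7428 and 5837 FPKM. Most of this sum came from Pmch, with means of 5107 FPKM on chow and 3494 FPKM on fructose. Limma called 0 of these 19 markers (3 at an unadjusted p under 0.05) and the exact permutation test 0 (1 at that level). The shares of all genes tested at that level were 19.2% by limma and 18.8% by the exact test. Of 12 general neuron markers limma called 0, with 2 at an unadjusted p under 0.05, and the exact test likewise 0 and 2. Their median log2 difference was -0.11, close to the -0.13 of the channel genes. Their sums were 2990 to 3753 FPKM on chow and 2944 to 3397 FPKM on fructose. The FPKM of a rat summed to between 556902 and 608058, with 13156 to 13384 rows above 0, and no 2 columns were identical.

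Genes whose products bind or follow the channels were counted from 4 lists. Of 19 tested partners of sodium channels, with a median of -0.12, 17 did not pass. Another 2 fell and 0 rose, beside 2.27% and 1.66% of all genes tested. Fgf12, an intracellular factor that binds sodium channel tails, was at 103 ± 6.48 FPKM in chow rats and 85.6 ± 5.68 FPKM in fructose rats, with no overlap, and fell by 0.26 (-0.26 ± 0.05; adjusted p = 0.0245 by limma). Calm2, a calmodulin gene, fell by 0.25 (-0.25 ± 0.07, adjusted p = 0.0499). Ankyrin G (Ank3), which holds sodium channels at the initial segment, did not pass (-0.01 ± 0.09, limma adjusted p = 0.964).

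Of 37 tested partners of calcium channels, with a median of -0.15, 32 did not pass. Another 4 fell and 1 rose, beside 2.27% and 1.66% of all genes tested. Those that fell were Ppp3cb, a catalytic subunit of calcineurin, at -0.34 ± 0.07 (limma adjusted p = 0.0206), the calmodulin kinase genes Camk2b and Camk2d at -0.30 ± 0.07 and -0.35 ± 0.09, and Rims1, an active zone protein, at -0.44 ± 0.11. Cabp1, a calcium-binding protein that modulates Cav channels, rose from 40.8 ± 9.58 to 63.0 ± 8.14 FPKM (0.64 ± 0.13, adjusted p = 0.0258). Stac2, an adaptor of L type channels, stood at 0.48 ± 0.13 and just missed the threshold (adjusted p = 0.0519).

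Of 28 tested genes of calcium release, pumps and exchangers, 3 fell and 2 rose (median -0.06), beside 2.27% and 1.66% of all genes tested. Atp2b1, a plasma membrane calcium pump, went from 87.8 ± 27.0 down to 44.2 ± 15.1 FPKM (-0.999 ± 0.23; adjusted p = 0.0338 by limma). The reticulum pumps Atp2a2 (-0.32 ± 0.08) and Atp2a1 (-1.01 ± 0.23, at 1.88 and 0.712 FPKM) fell too. Ryr2, a calcium release channel, stood at 9.76 ± 1.29 and 12.9 ± 0.611 FPKM and rose by 0.39 ± 0.08 (adjusted p = 0.0258). Its fructose rats were all higher than any chow rat, a separation found in 0.879% of all genes. The other riser was Calb2 (0.51 ± 0.11), the calcium buffer calretinin, which the thalamus list holds as well. Of 10 tested genes of other voltage-dependent and leak cation channels, the HCN pacemaker channels among them, limma called 0, with 4 at an unadjusted p under 0.05, and the exact permutation test 0, with 4 at that level. These counts stand beside 3.94% of all genes tested that limma called. At an unadjusted p under 0.05 the shares were 19.2% by limma and 18.8% by the exact permutation test.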

How the data were processed

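The table deposited by the authors gives FPKM for each rat. The submitters' processing notes name STAR 2.3.0e, Cufflinks 2.1.1, Cuffdiff and the rn5 rat build, without settings or order, and do not say whether libraries were scaled to each other. Read counts were not used and depth is unknown, so precision rests on the spread between rats. An FPKM listed at 0 can be a failed estimate. Columns were matched to rats by title, and replicates were numbered in accession order, which pairs nothing.

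Values were analysed as log2(FPKM + 0.5), a scale that understates changes of low genes. Rows with a mean of at least 0.5 FPKM were tested in R 4.3.3 by the two-sided moderated test of limma 3.58.1, with an intensity trend in its empirical Bayes step, and p-values were adjusted over all 11837 rows. Each gene, and each pair with Cacna1g, also had an exact two-sided permutation test over 1716 splits, whose smallest p is 0.000583. The procedure was tested on simulated data. The members, gene lists and tests were chosen with earlier results of these data known. Members were named, except that some genes are counted but not reported here, with values by rat for called genes, the T type pores and the 3 most abundant of each class; partner genes were named when called, up to 5 per list, and Ank3, Stac2 and Scn2a1 after their values were seen. Marker lists covered hypothalamus, thalamus, midbrain dopamine neurons, striatum, cortex, neurons, astrocytes, oligodendrocytes, blood, meninges, endothelium, skeletal muscle and microglia. Of the lists not given in the results, 2 of 9 striatum and 2 of 8 cortex and hippocampus markers rose, beside 1.66% of all genes tested. Limma called 0 of 9 oligodendrocyte, 0 of 9 endothelial, 0 of 2 muscle and 0 of 6 microglial markers, with 1, 2, 1 and 1 at an unadjusted p under 0.05, and the exact permutation test 0 in each, with 0, 3, 0 and 1 at that level.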

Additional observations from a re-analysis of the deposited data

Results flagged for a closer look

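In 64 groups examined (32 genes in 2 diets), 7 had a rat whose gap to the nearest other exceeded Dixon's critical value at the 95% level, where chance gives about 1 in 20 groups. Chow replicate 2 stood high in Cacna1g (56.7 FPKM) and Cacng7 (141 FPKM). Chow replicate 1 stood high in Scn9a (8.40 FPKM) and in the row of Cacng8 joined with Mir935 (26.3 FPKM). Fructose replicate 2 stood low in Cacna1d (6.66 FPKM), chow replicate 7 low in Cacng3 (17.3 FPKM) and fructose replicate 3 high in Scn4a (1.22 FPKM).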

How the results depend on the processing

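The channel genes called numbered 5 with all rats and 466 of all genes were called. Both moved by over 1.5 times in 3 settings that kept all rats: no filter on low values gave 0 and 130, array weights 8 and 1019, and exact permutation tests 0 and 0. The exact permutation tests could call no gene after adjustment, so their counts do not bear on the channel genes. An adjusted p under 0.1 gave 7 and 915, so only the count over all genes moved by that much. Leaving out 1 rat gave 0 to 8 channel genes and 83 to 859 of all genes, and 4 to 17 of the 31 pairs with Cacna1g. Without chow replicate 2 and fructose replicate 2 together, a setting chosen after the data were seen, 0 channel genes, 73 genes and 0 pairs passed, with 8 channel genes and 14 pairs at an unadjusted p under 0.05. Cacna1g was then at -0.30, and its difference from Cacna1h at -0.84. Cacna1g stayed at -0.44 but did not pass without a filter (limma adjusted p = 0.0920) or by the exact permutation test (0.0821), and leaving out 1 rat gave -0.48 to -0.36. The difference between Cacna1g and Cacna1h ranged from -1.08 to -0.84 over the fits with rats left out. Genes near 0 changed sign. With quantile normalization Cacnb3 was at 0.026 and Scn4b at 0.013, and with array weights Cacnb3 was at 0.046 and Scn3a at 0.015. Without both rats Cacnb3 was at 0.033, Scn1a 0.020, Scn3a 0.0040, Scn4a 0.042, Scn4b 0.070 and Scn8a 0.023. Over the fits with 1 rat, or both, left out, Cacnb3 ranged from -0.062 to 0.048, Scn1a from -0.34 to 0.020, Scn3a from -0.051 to 0.047, Scn4a from -0.12 to 0.042, Scn4b from -0.19 to 0.11 and Scn8a from -0.27 to 0.023. The cause was not tested. No paired analysis was possible because the labels give the rats of both diets no shared numbers. Precision is limited by the number of rats, since depth is unknown.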
